A study of Rattus norvegicus with 18 samples.

Results

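The genes described here encode the protein parts of the cytosolic ribosome and the factors that drive translation on it, measured in the left ventricles of rats that model heart failure with preserved ejection fraction. They were chosen by symbol from the authors' 3 lists of changed genes: Rpl, Rplp, Rps and Rpsa for ribosomal proteins, and Eif and Eef for initiation and elongation factors and the regulators named after them, leaving out the S6 kinase genes (Rps6k). The rule matched 71 gene identifiers with 65 symbols, of 6588 identifiers in any of the lists. Of these, 60 identifiers were ribosomal proteins and 11 were factors or regulators.

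Polyadenylated RNA was sequenced from 18 male rats, 6 in each of 3 groups. ZSF1 obese rats carry hypertension and metabolic syndrome and are the group the study calls HFpEF. ZSF1 lean rats are hypertensive, and WKY rats are the control strain. Obese and lean rats share the ZSF1 background, while WKY rats differ from both in strain, so the comparisons with WKY hold strain and disease together. The deposited lists hold a fold and an adjusted p for each gene that reached at least 2 or, if lower, at most 0.5. Values per rat, levels, standard errors and depth are not part of the lists, so the depth behind each fold is unknown and the adjusted p is the sole measure of error. A gene outside a list cannot be told from a gene that was not detected, missed a threshold or carries another symbol there.

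A ribosome is built from ribosomal RNA and a single copy of most ribosomal proteins, which cells normally make in matched amounts. The mRNAs of ribosomal proteins, and of several elongation factors, start with a C followed by a run of pyrimidines, the 5′ terminal oligopyrimidine tract, through which the kinase complex mTORC1 and the binding protein Larp1 control their translation. Initiation factors bring the small subunit to the mRNA cap and the start codon, and elongation factors deliver charged tRNAs and move the ribosome on. Striated muscle has a ribosomal protein of its own, Rpl3l, which takes the place of Rpl3 near the peptidyl transferase centre. Mice that lack Rpl3l hold more Rpl3 in the heart.

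In obese against lean hearts, the listed ribosomal proteins were nearly all higher, and the muscle paralog Rpl3l was the single one that was lower. Of 46 initiation factor genes in the RefSeq annotation, 4 were listed, all as lower (8.70%, beside 10.7% of all protein-coding symbols). Of the 52 ribosomal protein identifiers in the authors' deposited table, 51 rose and 1 fell. Thus 98.1% were higher, beside 53.4% of all 5700 listed genes. The large subunit gave 32 rises and 1 fall, and the small subunit gave 19 rises and no fall. Their rises were mostly small: the median fold was 2.60, with a range of 2.01 to 7.46, and 29.4% of them reached a fold of 3, whereas all risen genes in the authors' deposited table had a median of 3.01 and 50.4% of them reached 3. Mitochondrial ribosomal proteins, which build the separate ribosome of the organelle and are not members, went the other way, with 25 of 25 listed genes lower in obese hearts at a median fold of 0.398.

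**Figure D1:**
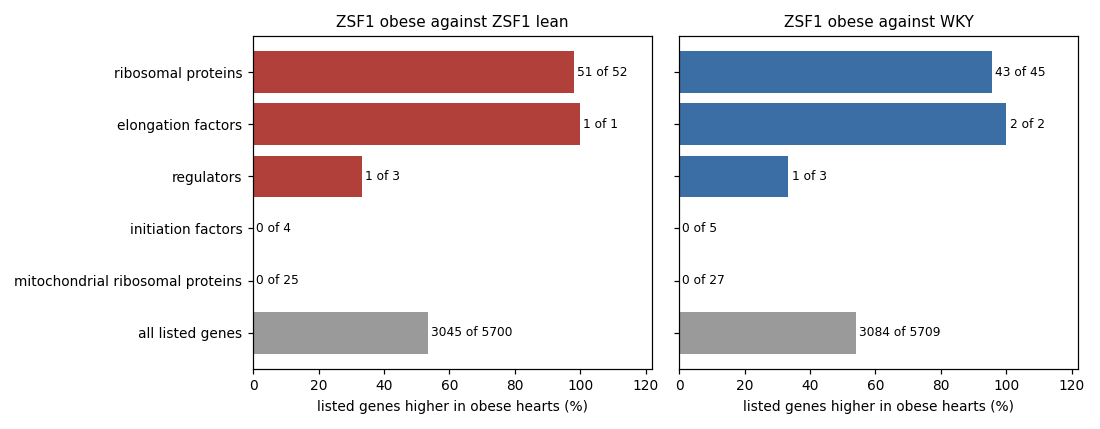
Share of listed genes that were higher in obese hearts (x axis, percent), for each class of translation gene and for all listed genes, with the number higher of the number listed beside each bar. Ribosomal proteins stood at 51 of 52 against lean and 43 of 45 against WKY, initiation factors at 0 of 4 and 0 of 5, and all listed genes at 3045 of 5700 and 3084 of 5709.

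The sequence at the start of transcription was read from RefSeq promoters (build GRCr8) for the 51 member symbols with a single entry. Each line below holds 30 bases, 10 before and 20 from the annotated start, with capitals for a C followed by at least 4 pyrimidines that begins within 5 bases of the start. The first 6 are members that rose and hold such a tract, shown because it is the known feature of this gene class. The last 4 are the paralog pair and 2 initiation factors that fell, none of which hold it there. The lines are picked examples: Rps12 rose without such a tract, and Eif4g1 fell with it.
Rpl31, chr9:49143101-49143130 (+): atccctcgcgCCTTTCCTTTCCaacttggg
Rpl35, chr3:43165902-43165931 (-): cttcctCTTTCTCTCgaaccgggcggcctc
Rpl37, chr2:55942935-55942964 (+): ggcgtaCTTTCTCTTCCggtctctttggcc
Rpl39, chrX:121195877-121195906 (-): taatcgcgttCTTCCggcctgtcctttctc
Rpl9, chr14:43247580-43247609 (+): aggacgttCTCTCTTTgccccatctactgc
Eef1a1, chr8:88225050-88225079 (-): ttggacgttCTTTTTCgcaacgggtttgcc
Rpl3l, chr10:14258436-14258465 (+): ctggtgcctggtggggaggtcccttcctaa
Rpl3, chr7:113507971-113508000 (-): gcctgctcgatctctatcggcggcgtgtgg
Eif4a2, chr11:91275304-91275333 (-): ttcagtcgggcgctgagtgggttttcggat
Eif1ax, chrX:39322004-39322033 (-): ccgggggaagcaccgcccgctgccgcgacg

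The tract was found in 23 of 33 promoters of ribosomal proteins that rose against lean hearts (69.7%) and in 14 of 25 of those in no list (56%), beside 3616 of all 21842 protein-coding promoters (16.6%). Listed and unlisted ribosomal proteins thus both held it at shares above that of all promoters. Among reference initiation factors it was present in 10 of 42 (23.8%) and among elongation factors in 3 of 6. Of the 4 initiation factors that fell, Eif4g1 alone held it. An annotated start can lie some bases from the real one, and a match describes letters only.

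The largest rise among ribosomal protein identifiers was that of Rpl39 (ENSRNOG00000034237), 7.46-fold higher in obese hearts per the authors' deposited table (adjusted p = 2.25e-13). The second Rpl39 identifier stood at 2.35 there. Rpl39 is a very small protein in the exit tunnel of the large subunit. Rpl31l4, annotated as a copy of Rpl31, stood at 5.39 per the authors' deposited table and had the smallest adjusted p of the class, 3.49e-92. Its parent gene Rpl31, which sits beside the tunnel exit, stood at 2.99 per the authors' deposited table (adjusted p = 4.58e-35). The copy and its parent were therefore both higher in obese hearts, and reads from so similar sequences may have been divided between them.

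Among the other large rises of the large subunit in the authors' deposited table were those of Rpl9 (4.76), Rpl32 (3.60), Rpl35 (3.51) and Rpl37 (3.23). Rpl35 is a neighbour of Rpl31 at the tunnel exit. Rpl9 had an adjusted p of 1.08e-06 and Rpl35 one of 4.18e-31 in the authors' deposited table. Among small-subunit proteins, Rps12 stood at 3.92, Rps28 at 3.84, Rps19 at 3.78 and Rps20 (ENSRNOG00000030345) at 3.14 in the authors' deposited table. Rps28 lies near the channel through which mRNA leaves the small subunit, and Rps12 and Rps20 lie in the subunit's head. Rps19, mutated in some people with Diamond-Blackfan anaemia, had the smallest adjusted p of the small subunit (3.09e-56), though the authors' deposited table describes this identifier as an S19-like copy. Rpl28 (fold 2.87, adjusted p = 3.50e-35) combined a moderate fold with a small adjusted p-value in the authors' deposited table. At the other end, Rps27 at 2.01 lay just above the list's minimum fold of 2 in the authors' deposited table.

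**Figure D2:**
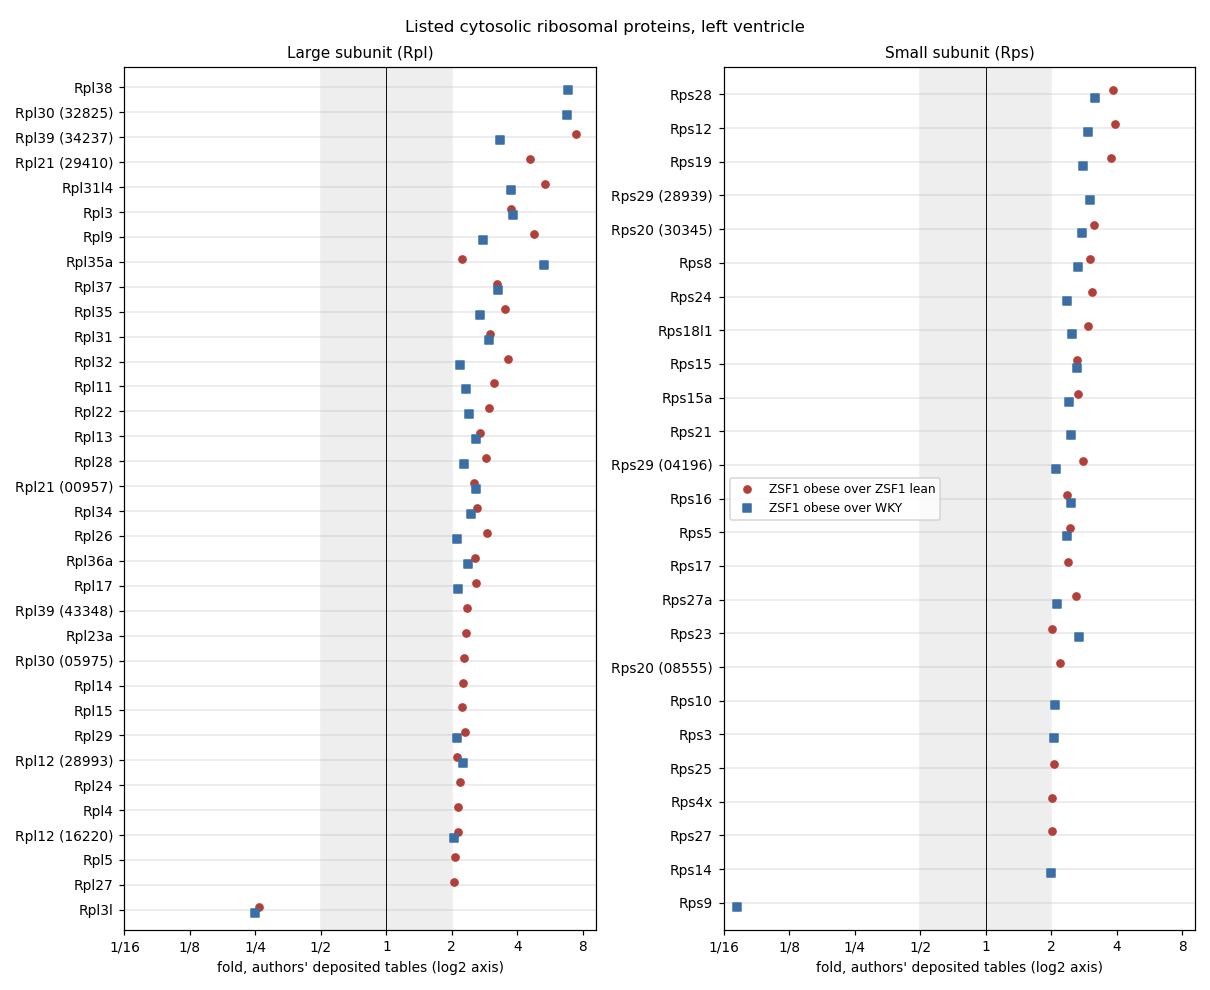
Fold of listed ribosomal proteins (x axis, log2 scale) in obese over lean hearts (red circles) and in obese over WKY hearts (blue squares), large subunit left and small subunit right; a missing point means the gene is not in that list, the last digits of the identifier follow symbols with more than 1, and the grey band holds folds the lists leave out. Most points lie between 2 and 4, Rpl3l lies near 0.25 in both comparisons, and Rps9 lies at 0.072 against WKY.

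Counted by symbol against the 80 ribosomal protein genes of the RefSeq annotation without copy symbols, 46 were listed, 45 as higher and 1 as lower. Rps19, Rpl35a and Rpl36a count as listed here although their identifiers are described as copies. Rps18 counts as not listed although the identifier of Rps18l1 is described as S18. That is 57.5%, beside 22.8% of all 23148 protein-coding symbols listed in the authors' deposited table. Those symbols include genes that the ventricle may not express. The share among expressed genes is unknown, here and wherever all protein-coding symbols serve as background. Among the 34 that were not listed were the stalk proteins Rplp0, Rplp1 and Rplp2, Rpsa, Rpl10, which closes the last steps of large-subunit assembly, and Rps6, the target of S6 kinase. They were named after the lists had been read, and nothing is known here of their folds.

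Rpl3l and Rpl3 stood apart in direction. Rpl3l (ENSRNOG00000014641) stood at 0.261 of its lean level in hearts of obese rats per the authors' deposited table (adjusted p = 1.34e-11). Rpl3, the general form (ENSRNOG00000016896), was 3.76-fold higher in obese than in lean hearts per the authors' deposited table (adjusted p = 3.26e-26). The fold of Rpl3 was thus 14.4 times that of Rpl3l. Against WKY, the authors' deposited table gave 0.248 for Rpl3l (adjusted p = 9.00e-12) and 3.81 for Rpl3 (adjusted p = 3.55e-21), a ratio of 15.4. Both comparisons use the same 6 obese rats. Neither gene was in the list of lean against WKY hearts. The ratio compares changes, not levels, so it does not say which of the 2 mRNAs is the more abundant in any group.

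The 250 bases before the annotated starts of the pair (GRCr8, RefSeq) are given because these paralogs were listed in opposite directions. Capitals mark every match on either strand to CATTCC (the core bound by TEAD factors), CANNTG (the E-box), CTTCCG (the ETS core), AAGATGG (the YY1 core) and TATAAA (the TATA box).
Rpl3l, chr10:14258196-14258445 (+): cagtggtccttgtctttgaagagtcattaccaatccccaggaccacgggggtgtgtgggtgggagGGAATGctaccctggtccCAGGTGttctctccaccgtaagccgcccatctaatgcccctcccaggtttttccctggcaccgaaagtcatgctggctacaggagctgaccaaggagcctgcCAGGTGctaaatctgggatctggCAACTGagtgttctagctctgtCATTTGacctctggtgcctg
Rpl3, chr7:113507991-113508240 (-): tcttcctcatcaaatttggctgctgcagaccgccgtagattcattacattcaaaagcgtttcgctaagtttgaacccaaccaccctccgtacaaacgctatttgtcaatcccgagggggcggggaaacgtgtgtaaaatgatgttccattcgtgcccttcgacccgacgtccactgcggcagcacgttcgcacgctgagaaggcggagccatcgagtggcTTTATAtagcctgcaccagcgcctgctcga

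Upstream of Rpl3l there were 4 E-boxes, whose letters read as CANNTG on both strands and were counted once, and 1 CATTCC on the opposite strand, printed as GGAATG. Upstream of Rpl3 there was 1 TATAAA on the opposite strand, printed as TTTATA, and no matches overlapped. Of all protein-coding promoters, 63.3% hold CANNTG, 11.0% hold CATTCC and 12.1% hold TATAAA in this window, so none of these matches is rare. Over the 65 ribosomal protein promoters the shares were 46.2%, 10.8% and 12.3%. The ETS core, absent from these letters in both genes, was in 46.2% of ribosomal protein promoters and 61.9% of initiation factor promoters, beside 16.8% of all.

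Translation factors were listed less uniformly. In obese against lean hearts, 8 were listed in the authors' deposited table, 2 higher and 6 lower, beside 46.6% of all listed genes that were lower. Those 8 were 11.9% of the 67 reference factors and regulators, beside 22.8% of all protein-coding symbols. All 4 listed initiation factors were lower, and 3 of them belong to the Eif4 group that handles the mRNA cap. Eif4g1 (ENSRNOG00000001738), the scaffold that joins the cap-binding protein, the helicase and the poly(A)-binding protein, was at 0.198 per the authors' deposited table (adjusted p = 5.26e-104). Eif4g2, a relative of Eif4g1 that lacks the cap-binding protein's docking site, was at 0.451 (adjusted p = 1.05e-66), and Eif4a2, an RNA helicase, at 0.435 per the authors' deposited table (adjusted p = 5.15e-47). Eif1ax, which helps the small subunit scan for the start codon, was at 0.401 per the authors' deposited table (adjusted p = 9.69e-38).

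Of the 14 reference regulators, 3 were listed against lean (21.4%), near the 22.8% of all protein-coding symbols, so their number is no result about regulators. Of these 3, 2 bind the cap-binding protein. Eif4ebp2, which holds Eif4e away from the scaffold, was at 0.274 per the authors' deposited table (adjusted p = 6.39e-58). Eif4enif1, which carries Eif4e into the nucleus, was at 0.490 per the authors' deposited table (adjusted p = 3.95e-25). The related inhibitors Eif4ebp1 and Eif4ebp3 were in neither obese list, so 1 of 3 genes of that family was listed, beside 10.7% of all protein-coding symbols listed as lower. Eef1akmt1, a methyltransferase that acts on the Eef1a proteins, was at 2.44 per the authors' deposited table (adjusted p = 5.93e-12), and the other 3 Eef1akmt genes were not listed.

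Of 7 genes with an elongation factor symbol, 1 was listed against lean, as higher. That is 14.3%, near the 12.0% of all protein-coding symbols listed as higher, so it is no result about elongation factors as a class. Eef1a1 (ENSRNOG00000009439), which brings charged tRNAs to the ribosome, was 3.34-fold higher in obese than in lean hearts per the authors' deposited table (adjusted p = 5.77e-31). Its muscle paralog Eef1a2 was not listed in either obese comparison, so the pair cannot be set side by side as Rpl3 and Rpl3l were. Eef2, the translocase, and the other genes with an Eef1 symbol, Eef1b2, Eef1d, Eef1e1 and Eef1g, were not listed against lean either.

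Most factor genes were in no list. Of 46 reference initiation factors, 4 were listed as lower against lean hearts (8.70%), close to the 10.7% of all protein-coding symbols. The share among expressed genes is unknown, so the number of initiation factors listed is not read as a result about them. None of the 13 Eif3 subunits, the 4 Eif2 subunit genes (Eif2s), the 5 Eif2b subunits or the 4 Eif2 kinases (Eif2ak) was listed against lean, and 2 of the 3 Eif4g genes were.

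**Figure D3:**
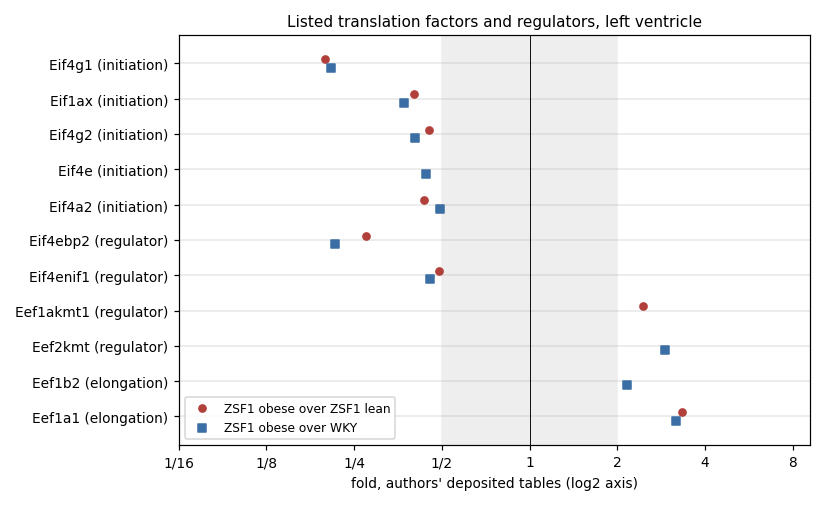
Fold of each listed translation factor or regulator (x axis, log2 scale) in obese over lean hearts (red circles) and in obese over WKY hearts (blue squares), with the role in brackets and a grey band over the folds that the lists leave out. The 5 initiation factors lie left of the band, from 0.198 for Eif4g1 to 0.493 for Eif4a2, and the 2 elongation factors lie right of it, from 2.16 to 3.34.

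In obese against WKY hearts, 45 ribosomal protein identifiers were listed, of which 43 rose and 2 fell, Rpl3l and Rps9. Thus 95.6% were higher, beside 54.0% of all 5709 listed genes. The rises had a median fold of 2.48 and a range of 2.00 to 6.82 in the authors' deposited table, where all risen genes had a median of 3.05. A fold of 3 was reached by 20.9% of the ribosomal rises and by 51.7% of all rises. Of the 80 reference genes, 41 were listed (51.2%), beside 22.9% of all protein-coding symbols. The obese rats are the same as in the comparison with lean hearts, so the 2 sets of folds are not independent. All 27 listed mitochondrial ribosomal proteins were lower, at a median fold of 0.361.

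The order of the members by fold differed from that against lean hearts. Rpl38, a small protein at the subunit surface known in mice for its part in translating Hox mRNAs, was at 6.82 per the authors' deposited table (adjusted p = 0.000162), although it was not listed against lean. Rpl38 was not listed in lean against WKY hearts either. Those steps together should make up its fold against WKY, so the lists do not close for Rpl38 and its value is uncertain. Rpl30 (ENSRNOG00000032825), part of a bridge between the subunits, was at 6.77 per the authors' deposited table and had the smallest adjusted p of the class, 1.03e-41. Rpl35a, which the authors' deposited table describes as a copy (L35a-like), stood at 5.28 against WKY (adjusted p = 1.69e-10), and its fold was 2.24 against lean. Rpl39 (ENSRNOG00000034237) stood at 3.34 against WKY per the authors' deposited table (adjusted p = 2.19e-07), below its fold of 7.46 against lean. The second Rpl39 identifier was not listed against WKY. No test compares the folds of the 2 lists.

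Rpl31l4 (3.73), Rpl37 (3.25), Rps28 (3.18), the second Rps29 identifier (ENSRNOG00000028939, 3.01), Rpl31 (2.97), Rps12 (2.97) and Rps19 (2.81) completed the largest rises in the authors' deposited table. Of these, the second Rps29 identifier had the largest adjusted p, 0.00788 in the authors' deposited table. Rpl13 (fold 2.58, adjusted p = 2.12e-15) was likewise moderate in fold with a small adjusted p-value in the authors' deposited table. Rps14, whose fold was 2.00 in the authors' deposited table, lay at the minimum of the list.

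Rps9 (ENSRNOG00000058909), a small-subunit protein that takes part in decoding, stood in hearts of obese rats at 0.072 of its WKY level per the authors' deposited table (adjusted p = 5.43e-34). By fold it ranked 75 of the 2625 genes that fell, and it was the largest change of any member in the 3 lists on the log2 scale. It was listed neither in obese against lean hearts nor in lean against WKY hearts. Those steps together should make up the fold against WKY, so the lists do not close for this identifier, as for Rpl38 above. The value of Rps9 is therefore uncertain, and whether identifier, strain or counting has a part in it was not tested.

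Of 10 factors and regulators listed against WKY, 3 rose and 7 fell, beside 46.0% of all listed genes that were lower. Those 10 were 14.9% of the 67 reference factors and regulators, beside 22.9% of all protein-coding symbols. The 5 initiation factors were Eif4g1 at 0.209 (adjusted p = 2.32e-74), Eif4g2 at 0.403, Eif4a2 at 0.493, Eif1ax at 0.371 and, listed against WKY alone, Eif4e, the cap-binding protein itself, at 0.441 per the authors' deposited table (adjusted p = 4.08e-22). Eif4ebp2 stood at 0.215 per the authors' deposited table (adjusted p = 2.12e-68) and Eif4enif1 at 0.454. Eef1a1 was at 3.18 per the authors' deposited table (adjusted p = 7.33e-23). Eef1b2, which recharges Eef1a1 with GTP, was at 2.16 per the authors' deposited table (adjusted p = 3.25e-05). Eef2kmt, a methyltransferase of the translocase Eef2, was at 2.91 per the authors' deposited table (adjusted p = 1.16e-16). With 5 of 46 initiation factors listed as lower (10.9%), beside 10.6% of all protein-coding symbols, their number was again near the background.

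In lean against WKY hearts, 2 members were listed, both ribosomal proteins, 1 higher and 1 lower, in a table of 233 genes of which 63.9% were higher and 36.1% lower. The table holds 0.881% of all protein-coding symbols, 0.592% as higher and 0.289% as lower. Rpl30 (ENSRNOG00000032825) was 3.03 times as high in lean as in WKY hearts per the authors' deposited table (adjusted p = 6.14e-27). Rpl21 (ENSRNOG00000029410) was at 0.470 of the WKY level in lean hearts per the authors' deposited table (adjusted p = 3.79e-06). The first was listed as higher in both ZSF1 groups against WKY and not between them, and the second was 4.56-fold higher in obese than in lean hearts (adjusted p = 6.91e-20) and was not listed between obese and WKY hearts. This list is not on the footing of the other 2: its highest adjusted p is 0.000347, beside 0.0498 and 0.0499, and for 79 of 79 genes in all 3 lists its fold lies nearer 1 than the quotient of the obese folds. Absence of a ribosomal protein from it says less than absence from an obese list.

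Copies bear on many of these values. Ribosomal protein genes have left many processed copies in the rat genome: RefSeq names 858 ribosomal protein pseudogenes and 124 of translation factors under the symbol rule. In the lists, 6 ribosomal protein symbols stood on 2 identifiers each. Against lean hearts the authors' deposited table gave 7.46 and 2.35 for Rpl39, 4.56 and 2.53 for Rpl21, 3.14 and 2.20 for Rps20, and 2.11 and 2.14 for Rpl12. Rpl30 was at 2.28 against lean on one identifier (ENSRNOG00000005975) and at 6.77 against WKY on the other in the authors' deposited table. How reads that fit several genes were counted is not given in the sources used here. Folds of single identifiers with near-identical copies are uncertain. The identifiers that changed between lean and WKY hearts, those of Rpl30 and Rpl21, are both of this kind.

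The genes around translation were described from fixed lists, whose members are counted as listed higher or lower. Of all protein-coding symbols, 12.0% were listed as higher and 10.7% as lower against lean, and 12.3% and 10.6% against WKY. Each list's shares are set beside these, with no test. The background includes genes that the ventricle may not express, so a share near or above it is a description only. Fau, which encodes a small-subunit protein fused to a ubiquitin-like leader, was higher in obese hearts, at 2.40 against lean and 2.36 against WKY in the authors' deposited tables. Rack1, another ribosomal protein outside the symbol rule, was not listed. Of 12 nascent-chain genes, 2 rose (16.7%) and none fell against lean, near the background: Nmt2, an N-myristoyltransferase, at 2.31 and Tpt1, a protein whose mRNA carries the pyrimidine tract, at 2.03 in the authors' deposited table. Against WKY, 1 of them rose and 1 fell.

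Of 18 genes for poly(A) binding and control at the mRNA 5′ end, 2 rose (11.1%) and 3 fell (16.7%) against lean, with the same counts against WKY. With so few genes, these shares are near the background of 12.0% and 10.7%. Pabpc1, the main cytoplasmic poly(A)-binding protein and another mRNA with a pyrimidine tract, was 4.06-fold higher in obese than in lean hearts per the authors' deposited table (adjusted p = 9.90e-102). Pdcd4, an inhibitor of the Eif4a helicases, was at 2.36 per the authors' deposited table (adjusted p = 3.59e-49). Larp1, which binds the pyrimidine tract, was at 0.328 per the authors' deposited table (adjusted p = 1.05e-48). Larp4b was at 0.245 and Pabpc4 at 0.312 in the authors' deposited table. Of 10 termination and recycling genes 1 rose (10.0%) and 2 fell (20.0%) against lean, counts too small to set apart from the background: Gspt2, a release factor GTPase, was at 2.16, Etf1, the release factor that reads stop codons, at 0.415, and Hbs1l, a ribosome rescue factor, at 0.328 in the authors' deposited table.

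Of 54 genes for ribosome biogenesis and RNA polymerase I, 2 rose (3.70%) and 7 fell (13.0%) against lean, and 2 rose and 6 fell (11.1%) against WKY, while 45 and 46 were not listed. The share that fell was near the 10.7% and 10.6% of all protein-coding symbols, and the share that rose was below the 12.0% and 12.3%. Against lean, Rrn3, which recruits RNA polymerase I to ribosomal DNA, was at 0.279, Polr1a, its largest subunit, at 0.432 and Gnl3l, a nucleolar GTPase, at 0.287 in the authors' deposited table. Taf1d, a subunit of the polymerase I selectivity factor, was at 4.44 and Nvl at 2.03 in the authors' deposited table. Of 22 cytosolic aminoacyl-tRNA synthetase genes none rose and 2 fell against lean (9.09%, beside 10.7% of all), Farsb at 0.374 and Iars1 at 0.463 in the authors' deposited table.

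Upstream, mTOR, Akt and S6 kinase signalling gave 7 rises (17.1%) and 12 falls (29.3%) of 41 genes against lean, beside 12.0% and 10.7% of all protein-coding symbols. Against WKY there were 6 rises (14.6%) and 13 falls (31.7%), beside 12.3% and 10.6%. Against lean, Akt2, a kinase that signals from the insulin receptor, was at 0.186, Tsc1, an inhibitor of mTORC1, at 0.235 and Deptor, another mTOR inhibitor, at 0.213 in the authors' deposited table. Castor1, the arginine sensor that restrains mTORC1, was at 4.17, Sesn2, a leucine sensor, at 2.25 and Prr5l, a partner of mTORC2, at 3.01 in the authors' deposited table. Inhibitors of the pathway were thus listed in both directions. Named after their values were seen, the mTORC1 subunit Rptor was at 0.369 and the S6 kinase Rps6kb1 at 0.480 in the authors' deposited table. Of 25 targets of the integrated stress response, which slows initiation through Eif2, 7 rose (28.0%) and 3 fell (12.0%) against lean, beside 12.0% and 10.7% of all. Fgf21, a stress hormone, was at 11.2, Sesn2 at 2.25 and Ppp1r15b, a phosphatase subunit that acts on Eif2, at 2.07, while Vldlr was at 0.184, Stc2 at 0.121 and Shmt2 at 0.480 in the authors' deposited table. The counts against WKY were 5 rises (20.0%) and 3 falls (12.0%), beside 12.3% and 10.6%. In lean against WKY hearts, Ddit4 (2.11) and Cebpb (2.35) were the genes of these lists that were listed in the authors' deposited table.

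**Figure D4:**
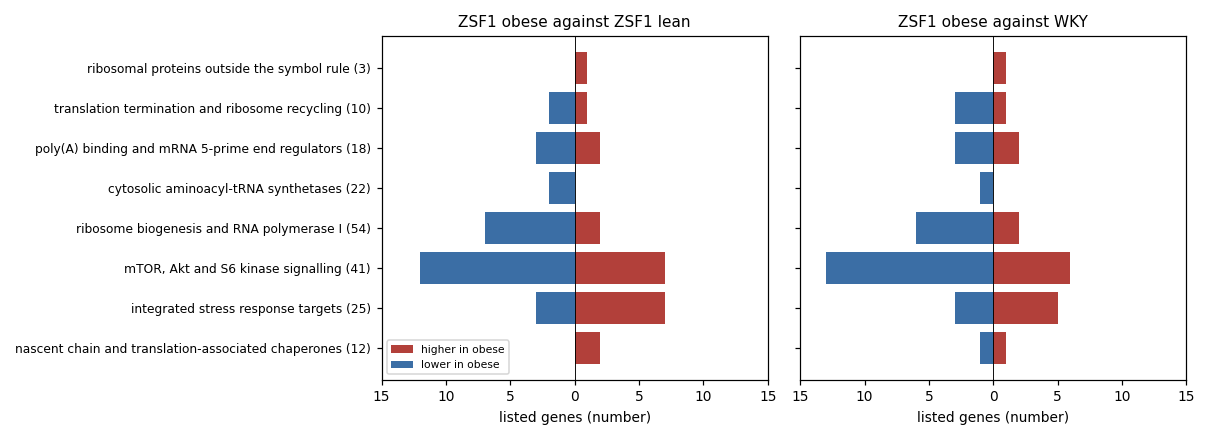
Number of listed genes higher (red, to the right) and lower (blue, to the left) in obese hearts for each list of genes around translation, with the size of the list in brackets, against lean hearts at left and against WKY hearts at right. Ribosome biogenesis had 2 higher and 7 lower of 54 against lean, and mTOR, Akt and S6 kinase signalling 7 and 12 of 41.

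Markers of cell types moved in the same comparisons. Beside their counts stand the shares of all protein-coding symbols, 12.0% listed as higher and 10.7% as lower against lean, and 12.3% and 10.6% against WKY. Against lean hearts, 6 of 12 cardiomyocyte markers were listed, all lower, at folds of 0.084 to 0.369 (median 0.246) in the authors' deposited table. Markers of other cells were listed as higher: 8 of 12 for fibroblasts at 2.31 to 20.0, 10 of 12 for macrophages at 2.53 to 9.00, 10 of 12 for endothelium at 2.19 to 4.96 and 8 of 12 for lymphocytes at 2.51 to 5.20 in the authors' deposited table. Against WKY, 6 cardiomyocyte markers were lower, at 0.097 to 0.371, and 10, 10, 10 and 7 markers of the same 4 other types were higher in the authors' deposited table. In lean against WKY hearts the macrophage marker Fcgr3a alone was listed, at 0.300 in the authors' deposited table. Summed marker levels in each group cannot be given without values per rat. The part of these markers in the rise of ribosomal proteins and the fall of Rpl3l was not tested, and in bulk tissue fewer cells of a type and less RNA per cell cannot be told apart.

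Ribosomal protein genes are short, and short genes were more often listed as higher. Gene span was taken from GRCr8 for 93.1% of the genes listed against lean and for 98.1% of the ribosomal proteins. The median span was 3136 bases for listed ribosomal proteins, 15892 for listed factors and 25739 for all listed genes. In the shortest decile of listed genes, 40 of 40 ribosomal proteins were higher in obese hearts. So were 70.8% of the 490 other genes there, meaning genes that are not members. In the longest decile 38.1% of the other genes were higher. Among 698 other genes with a span inside the central range of ribosomal proteins, from their 10th to their 90th percentile, 67.0% were higher, with a median fold of 3.34 for those that rose. Against WKY the same measure was 66.3% of 972 genes. Span therefore moved with direction across the lists, and its part in the ribosomal result was not tested.

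**Figure D5:**
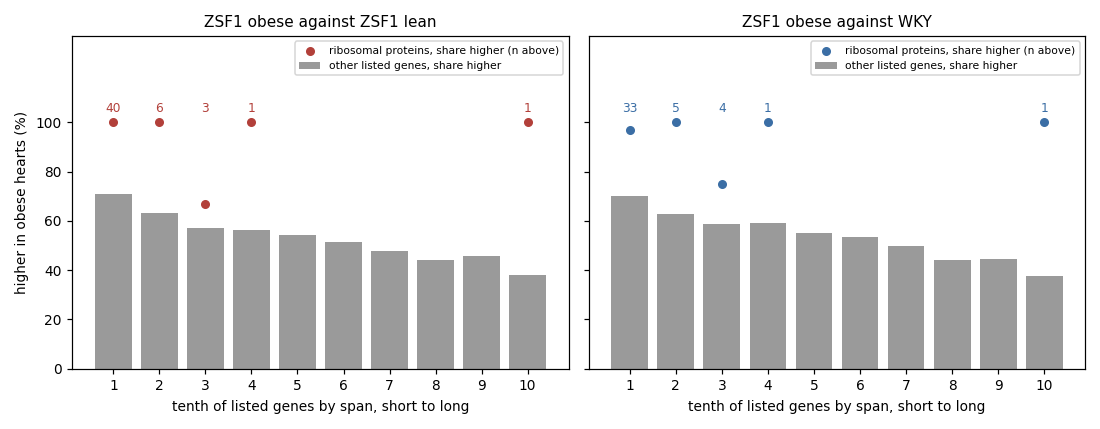
Share of listed genes higher in obese hearts (y axis, percent) by decile of gene span from short to long (x axis). Grey bars show genes that are not members, so translation factors and regulators are left out too. Points show ribosomal proteins, with the number listed above each. The grey bars go from 70.8% in the shortest decile to 38.1% in the longest against lean, and 40 of the 51 ribosomal proteins with a span lie in the shortest decile, all of them higher.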

How the data were processed

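RNA of the left ventricle from 18 rats was isolated with a Qiagen RNeasy kit, selected for poly(A) and prepared with a stranded TruSeq kit for single reads on a HiSeq, per the labels' protocols. Build Rnor_6.0 with HISAT2 2.1.0, HTSeq 0.11.2 and DESeq2 1.22.2 are named per the submitters' processing notes. The sources used here give neither the strand setting nor the handling of multiply mapped reads. They name no library batch, so a batch effect cannot be told apart from the groups.

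The data used are the authors' 3 deposited lists. Per the file headers, each gene has a linear fold (a ratio, first-named group over second) and a false discovery rate (an adjusted p-value). Tested on the values, every listed gene has an adjusted p under 0.05, and its fold is 2 or more, or 0.5 or less. The authors' adjusted p-value reflects the spread between rats, 6 in each group. Depth is unknown, so no interval is given.

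Members were matched by symbol and counted by direction beside all listed genes, with no test of their own, using Python 3.11.15, pandas 2.3.3 and numpy 2.4.6. The counting was tested on simulated data. RefSeq GRCr8 gave denominators, spans and promoters, matched by symbol because the build differs from that of the files (64 of 65 member symbols found, 51 with a promoter). Promoters there hold 250 bases before and 50 after the start. Named are Rpl3l, Rpl3, all listed factors, the 12 largest rises and falls and 6 smallest adjusted p of ribosomal proteins in each direction, and 3 genes per list and direction. Some genes that the rule covers are counted but not reported here by name. Members and lists were chosen with earlier results of these data known.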

Additional observations from a re-analysis of the deposited data

How the results depend on the processing

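The counts by direction were recomputed under adjusted p limits of 0.01 and 0.001, a minimum fold of 3 in either direction, each symbol counted once, regulators left out and symbols of copies left out. Under adjusted p limits, single counting of symbols and removal of the identifiers whose symbol itself marks a copy (2 in each obese comparison, Rpl31l4 and Rps18l1), every count stayed within 1.5 times its value as deposited. Identifiers that are copies only by their description, such as those of Rps19, Rpl35a and Rpl36a, and the second identifiers of a symbol stayed in under that last setting. With a fold of 3, the ribosomal proteins that rose were 15 in obese against lean and 9 in obese against WKY, the factors that rose 1 and 1, the factors that fell 2 and 2, and the ribosomal proteins that fell in lean against WKY 0, since this limit keeps fewer genes. With regulators left out, 1 factor rose in obese against lean, and the fallen factors were 4 there and 5 against WKY. The fall of Rpl3l was 0.261 against lean and 0.248 against WKY. Leaving out each rat in turn was not run, because the lists hold no values per rat. No paired analysis was possible because the results come from deposited lists with no values per rat. Depth, normalization and filters on low counts could not be varied.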

Other observations

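Small nucleolar RNAs are encoded in introns of many translation genes. In RefSeq, 76 of them lie inside 40 of the member genes. One of these, Snord72 inside Rpl37, was 3.39-fold higher in obese than in lean hearts per the authors' deposited table (adjusted p = 0.00178), where its host stood at 3.23. Against WKY it was at 5.10 and Rpl37 at 3.25 in the authors' deposited table. The library was selected for poly(A), which these RNAs lack, and reads of the host's unspliced RNA over the same bases cannot be told apart from theirs in these lists.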
